A study of Mus musculus with 6 samples.

Results

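TCF/LEF factors are the DNA-binding proteins through which Wnt signals reach genes, and beta-catenin is the coactivator that joins them. This group was defined by name as 7 mouse genes: the factors Tcf7, Lef1, Tcf7l1 and Tcf7l2, beta-catenin itself (Ctnnb1), and Axin2 and Apc, scaffolds of the complex that destroys beta-catenin. All probe sets whose platform symbol was one of these genes were taken, a probe set being a group of short oligonucleotides on the array that reports 1 transcript or several. This gave 17 probe sets for 6 genes out of 45101 probe sets in all, and the probe set with the highest mean log2 intensity stood for its gene among 18194 genes. No probe set carried the symbol Tcf7 in the annotation used here, so Tcf7 was not analysed here. The rule itself uses no measured value.

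The cells were lineage-negative, cKit-positive, Sca1-positive (LSK) bone marrow cells, the marrow fraction that holds blood stem cells and early multipotent progenitors. All came from mice aged 6 weeks of the genotype Hes1 GFP/WT, in which 1 allele of Hes1, a Notch target gene, carries GFP and the other is wild type. The 2 groups were GFP-positive cells (3 arrays) and GFP-negative cells (3 arrays), and in both groups replicate 1 was from a female and replicates 2 and 3 were from males. Every group therefore carried the reporter allele, no group without it is among these arrays, and the labels give neither the GFP gates nor the number of animals behind an array.

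Without a Wnt signal, Axin and Apc hold beta-catenin where kinases mark it for destruction, and TCF/LEF factors sit on their target genes with Groucho/TLE corepressors. With a signal, beta-catenin escapes, enters the nucleus and replaces the corepressors. The 4 factors are not alike in practice: Tcf7 and Lef1 are known from T and B lymphocyte development, Tcf7l1 acts largely as a repressor, and Tcf7l2 is best known from the gut and from metabolism. Axin2 is itself switched on by beta-catenin and is widely read as a sign of pathway activity.

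Lef1 was higher and Tcf7l2 lower in GFP-positive LSK cells, each in all of its probe sets, while beta-catenin and Axin2 lay close to their GFP-negative levels in the probe sets that stand for them. None of these differences passed over all genes. By limma with Benjamini-Hochberg adjustment, 0 of the 6 genes had an adjusted p under 0.05, against a background of 0% (0 of 18194 genes), and their adjusted p-values lay between 0.691 and 0.989. At an unadjusted p under 0.05 stood 1 of the 6, Tcf7l2, against 6.71% of all genes. The groups did not overlap for 2 of the 6 genes, 1 with all GFP-positive arrays above (5.89% of all genes) and 1 with all below (5.51%), together against 11.4% of all genes. Among the 17 probe sets, 7 had groups that did not overlap, against 11.5% of probe sets with 1 symbol, and 6 had an unadjusted p under 0.05, against 6.58%. Probe sets of 1 gene read the same RNA, so they are not independent of each other.

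**Figure D1:**
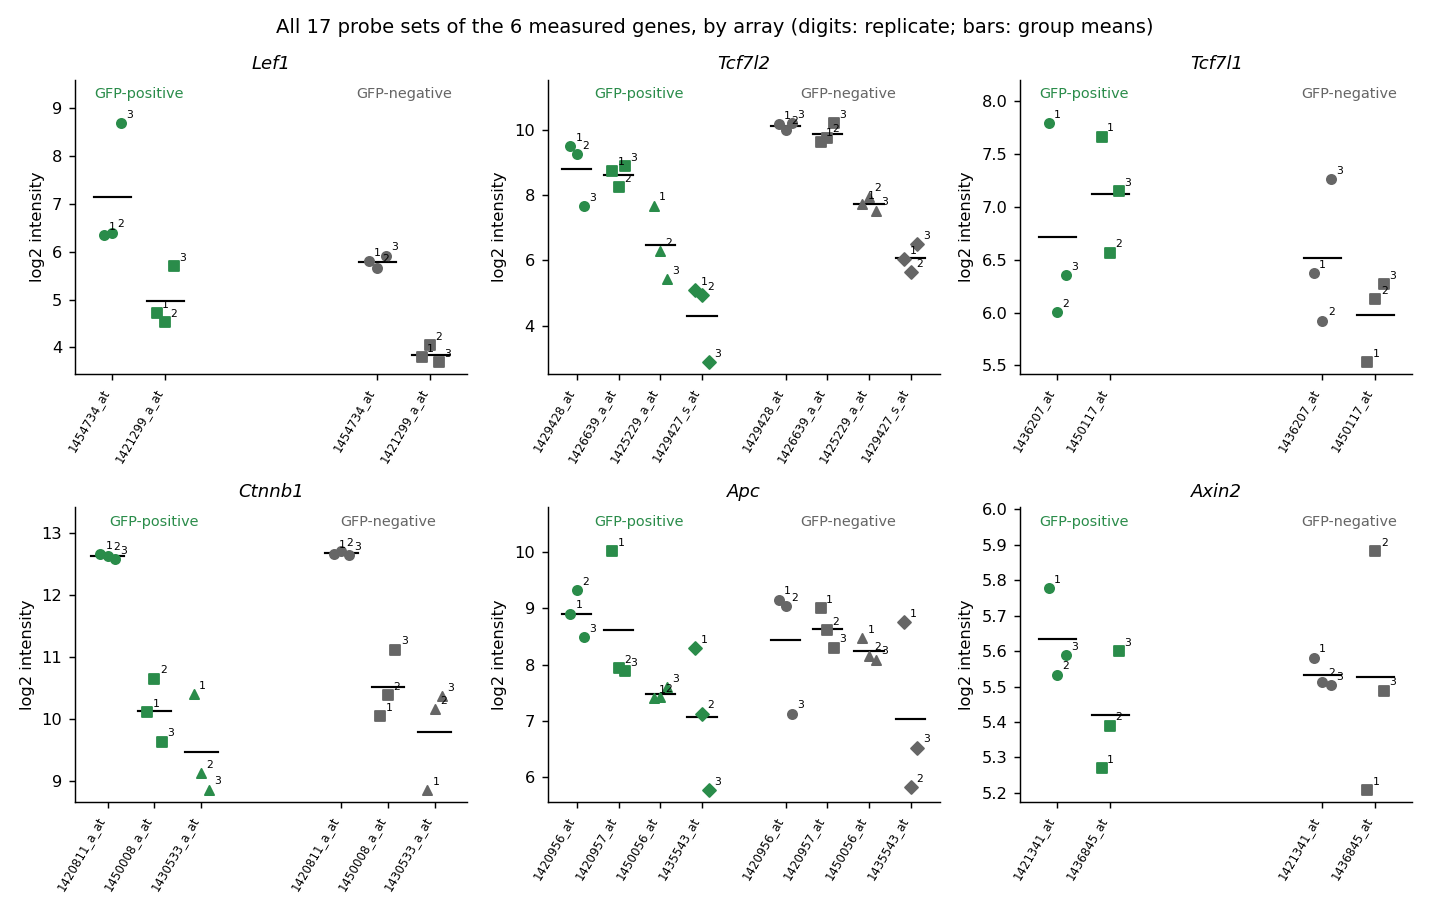
Log2 intensity of each of the 17 probe sets in each array, with GFP-positive arrays (green) left of GFP-negative arrays (grey) in each panel. Digits give the replicate number, marker shapes tell the probe sets of a gene apart and horizontal bars are group means (n = 3 arrays each). Both Lef1 probe sets lie higher in every GFP-positive array, and 3 of the 4 Tcf7l2 probe sets lie lower.

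Lef1 (lymphoid enhancer-binding factor), on chromosome 3 in GRCm38.p6, was the factor that stood higher. Its brighter probe set, 1454734_at, read 6.35, 6.40 and 8.68 (log2 intensity) in GFP-positive replicates 1, 2 and 3, against 5.80, 5.66 and 5.91 in GFP-negative replicates. All GFP-positive arrays lay above all GFP-negative ones, and replicate 3 stood well above the other two. The log2 fold change was 1.35 ± 0.65 (SE, n = 3 per group; limma adjusted p = 0.815), with a 95% interval from -0.23 to 2.93. The exact permutation test gave p = 0.1 (two-sided), the smallest that 3 arrays against 3 allow.

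The other Lef1 probe set, 1421299_a_at, gave the same picture at a lower signal. It read 4.71, 4.53 and 5.69 in GFP-positive replicates, against 3.79, 4.05 and 3.69 in GFP-negative replicates. Its groups did not overlap either, and its log2 fold change was 1.14 ± 0.34 (SE; adjusted p = 0.605 by limma over all probe sets). In females, where Y-linked genes can give background only, 3 such genes read between 3.42 and 4.69, a range that also holds all 3 GFP-negative values of this probe set and that of GFP-positive replicate 2, with replicate 1 just above it. The RMA method named in the submitters' notes can shrink differences near background, so the size of this fold change is uncertain. With GFP-positive replicate 3 left out, 2 of 2 probe sets were still higher, at 0.58 and 0.78.

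Tcf7l2, on chromosome 19, was the factor that stood lower. Its brightest probe set, 1429428_at, read 9.49, 9.24 and 7.66 in GFP-positive replicates, against 10.17, 9.996 and 10.19 in GFP-negative replicates. The GFP-negative arrays were tight (SD 0.11), the GFP-positive arrays all lay below them, and replicate 3 was the lowest. The log2 fold change was -1.32 ± 0.49 (SE, n = 3 per group; limma unadjusted p = 0.0352, adjusted p = 0.691), or 0.40 of the GFP-negative level, with a 95% interval from -2.52 to -0.13.

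The remaining 3 Tcf7l2 probe sets lay in the same direction, with log2 fold changes of -1.24, -1.26 and -1.76. The most even of them was 1426639_a_at, at 8.75, 8.25 and 8.88 in GFP-positive replicates, against 9.64, 9.76 and 10.20 in GFP-negative replicates. Here no single GFP-positive array stood apart, and the fold change of -1.24 ± 0.25 (SE) had the smallest p of the 17 probe sets (limma unadjusted p = 0.00271, adjusted p = 0.477). In 1425229_a_at the groups overlapped, since GFP-positive replicate 1 read 7.67 and GFP-negative replicate 3 read 7.52. In 1429427_s_at the groups did not overlap, and GFP-positive replicate 3 read 2.88 where the other two read 5.09 and 4.93. That reading lies below the background range given above for Y-linked genes, so the size of -1.76 is uncertain. The suffix _s_at marks probes that can also match transcripts of other genes. Without GFP-positive replicate 3, 4 of 4 probe sets were still lower, from -1.37 to -0.75, and without replicate 1 they lay from -2.16 to -1.30.

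GFP-positive replicate 3 was thus the highest array in both Lef1 probe sets and the lowest in 3 of the 4 Tcf7l2 probe sets. In the fourth, 1426639_a_at, it was the highest of the GFP-positive arrays. With it left out, the log2 fold change was 0.58 for Lef1 and -0.75 for Tcf7l2, both changed by over 1.5 times. The adjusted p-values were 0.664 and 0.547.

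**Figure D2:**
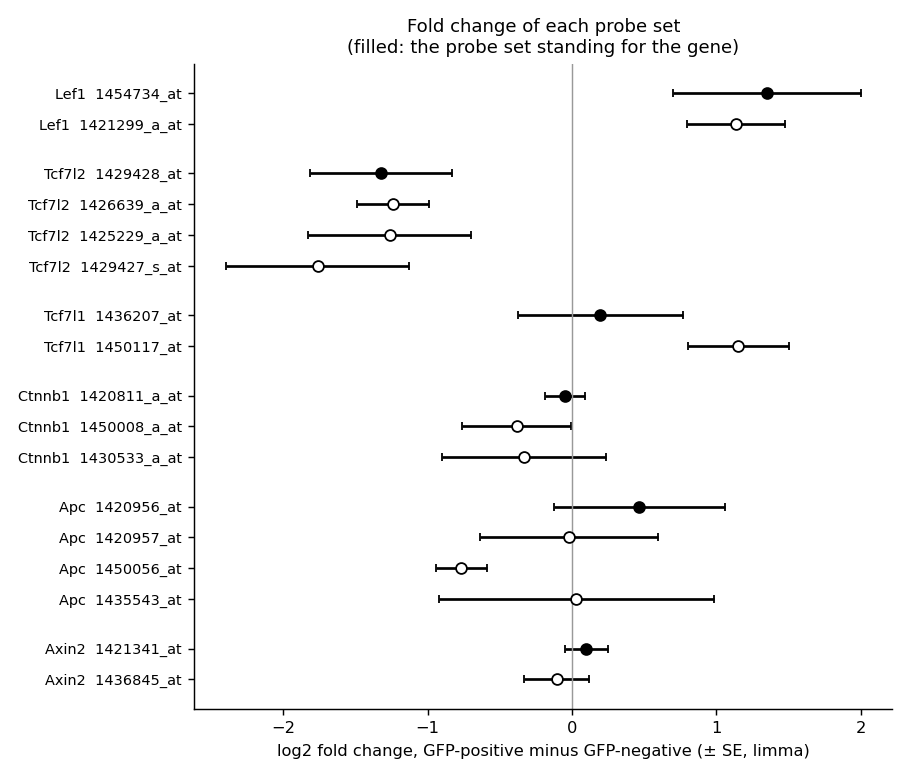
Log2 fold change (GFP-positive minus GFP-negative) of each probe set, with bars of 1 SE from limma (n = 3 arrays per group). Filled circles mark the probe set that stands for its gene. Lef1 lies at 1.35 and 1.14, Tcf7l2 between -1.76 and -1.24, and the probe sets of Apc on both sides of 0.

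Sequence upstream of the first start that RefSeq's promoter windows give for Lef1 and for Tcf7l2 is shown because these 2 factors stood apart in opposite directions. The stretches are the 250 bases before that start on the plus strand of GRCm38.p6, at chr3:131110047-131110296 for Lef1 and chr19:55741560-55741809 for Tcf7l2. The RefSeq gene record of Tcf7l2 begins at 55741797, so the last bases of its stretch lie inside the record. Capitals mark CTTTG, the core of the TCF/LEF site, on either strand (CAAAG on the other).
Lef1: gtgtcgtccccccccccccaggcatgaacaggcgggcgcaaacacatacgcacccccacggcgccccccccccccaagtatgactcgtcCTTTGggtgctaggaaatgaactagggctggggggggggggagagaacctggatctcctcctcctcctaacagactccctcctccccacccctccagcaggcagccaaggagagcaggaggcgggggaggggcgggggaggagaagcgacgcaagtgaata
Tcf7l2: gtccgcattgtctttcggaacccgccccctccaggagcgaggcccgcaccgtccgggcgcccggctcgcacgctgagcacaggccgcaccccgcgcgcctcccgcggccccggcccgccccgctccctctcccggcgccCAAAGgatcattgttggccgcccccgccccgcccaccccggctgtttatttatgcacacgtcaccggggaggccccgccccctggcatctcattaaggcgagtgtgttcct
The core began 161 bases before the window's start site for Lef1 and 111 bases before that for Tcf7l2, where it lay on the opposite strand. Such a short run is common: 48.6% of 32851 promoter windows of this length held it, and 7 of the 12 windows of the group did. Of these 7, Lef1 gave 4, and its windows 1 and 2 overlap and share the printed core. The 2 Ctnnb1 windows overlap as well, so the 12 are not separate stretches. RefSeq windows were matched for 6 genes, Tcf7, Lef1, Tcf7l1, Tcf7l2, Ctnnb1 and Axin2. TGGGAA, the core of the site of RBPJ, the DNA-binding partner of Notch, was in 1 of the 12 windows, that of Tcf7l1, against 21.6% of all windows. CACNAG, the N box to which Hes repressors can bind, was also in 1 of the 12, the window of the downstream Ctnnb1 start, against 36.7%. Both were searched on both strands, neither match overlapped a CTTTG match, and a match describes letters only.

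Lef1 and Tcf7l2 were set beside markers of cells in which they are known to be used or that an LSK gate could admit. B progenitor markers stood higher in GFP-positive arrays: 9 of 10 measured genes had a positive log2 fold change (median 1.88), and 0 passed over all genes. Their mean log2 intensity was 7.65, 8.10 and 9.33 in GFP-positive replicates, against 6.25, 6.48 and 6.46 in GFP-negative replicates. Their summed intensity lay between 3457 and 11550 in GFP-positive arrays and between 1338 and 2904 in GFP-negative arrays. In 6 of the 10 genes all GFP-positive arrays lay above all GFP-negative ones, against 5.89% of all genes. GFP-positive replicate 3, with the highest Lef1 and, outside 1426639_a_at, the lowest Tcf7l2, also had the highest B progenitor signal. Cd79a, a chain of the B cell receptor and itself 1 of these markers, was highest in that array. It read 7.99, 7.67 and 9.98 in GFP-positive replicates, against 5.79, 5.87 and 5.81 in GFP-negative replicates. Pax5, which fixes B cell identity, was not: it read 7.93, 6.34 and 6.65 in GFP-positive replicates, against 6.19, 6.16 and 6.30. The part of these markers in the Lef1 and Tcf7l2 values was not tested, and in bulk RNA fewer cells of a type and less RNA per cell cannot be told apart.

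No other marker list had its highest mean in GFP-positive replicate 3, but several held genes that were higher in all GFP-positive arrays. Over all genes, all GFP-positive arrays lay above in 5.89% and below in 5.51%. Summed intensity overlapped between the groups for T cell markers (1603 to 2684 in GFP-positive arrays, 1286 to 1819 in GFP-negative arrays). So it did for innate lymphoid and NK (2926 to 4123, 2947 to 3546) and endothelial and stromal markers (1773 to 14200, 1879 to 3007). It was higher for myeloid and erythroid markers (13080 to 20520, 9661 to 10760) and lower for LSK markers (17570 to 18150, 22250 to 22990). Genes named in this paragraph other than Cd3e, Ncr1, Pecam1, Itgam and Kit were chosen after their values were seen. T cell markers had a positive fold change in 11 of 14 measured genes (median 0.25), with mean log2 intensities of 6.15, 6.59 and 5.97 in GFP-positive arrays and between 5.70 and 5.73 in GFP-negative arrays. Cd3e, a chain of the T cell receptor complex, read 5.67, 5.98 and 5.63 in GFP-positive replicates, against 5.88, 5.38 and 5.54, and so overlapped. All GFP-positive arrays lay above in 6 of the 14, among them Themis (log2 fold change 2.38) and Thy1 (1.24). Markers of innate lymphoid and NK cells had a positive fold change in 6 of 8 genes (median 1.10), and their mean was highest in GFP-positive replicate 2, at 7.97. The NK receptor Ncr1 read 7.38 in that array and 4.08 and 3.67 in GFP-positive replicates 1 and 3, against 3.71, 3.82 and 3.75 in GFP-negative replicates. All GFP-positive arrays lay above in 4 of the 8, and Gzma, a granule protease, read 7.43, 8.07 and 7.12 in GFP-positive replicates, against 4.04, 4.20 and 4.86. The 2 lower genes of that list, Nkg7 (-0.11) and Prf1 (-0.14), were both brighter than Gzma and overlapped between the groups. Endothelial and stromal markers had a positive fold change in 10 of 12 genes (median 1.02) and stood highest in GFP-positive replicate 1, with a mean of 9.18 against 7.08 and 6.59 in replicates 2 and 3. Pecam1, an adhesion molecule of endothelium that blood stem cells also carry, overlapped between the groups. In 3 of the 12, Tek (2.82), Cxcl12 (4.63) and Tie1 (0.80), all GFP-positive arrays lay above, though 1 of the 3 Cxcl12 probe sets was at -0.0049, and Tie1 was highest in replicate 2. The rest of the list overlapped between the groups: Kdr and Col1a1 stood out in GFP-positive replicate 1 alone, and Emcn was at 0.07. Myeloid and erythroid markers had a positive fold change in 7 of 9 genes (median 0.73), and the integrin Itgam read 6.65, 5.21 and 5.86 in GFP-positive replicates, against 5.92, 7.65 and 6.33. All GFP-positive arrays lay above in 6 of these 9 genes and below in 1. Elane, a neutrophil protease, had a log2 fold change of 4.23, the platelet factor Pf4 of 3.02 and the erythroid factor Klf1 of 3.00. Csf1r, the gene that lay below, was at -2.20 with 3 of 3 probe sets lower, and Mpo was at 0.08. Markers of LSK cells had a positive fold change in 5 of 10 genes (median -0.02), and Kit, on which the cells were sorted, read 9.69, 10.30 and 10.51 in GFP-positive replicates, against 10.72, 10.58 and 10.47. All GFP-positive arrays lay below in 3 of the 10, Cd34 (-0.63), Cd48 (-0.77) and Flt3 (-0.89), and above in 1, Procr (0.77).

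**Figure D3:**
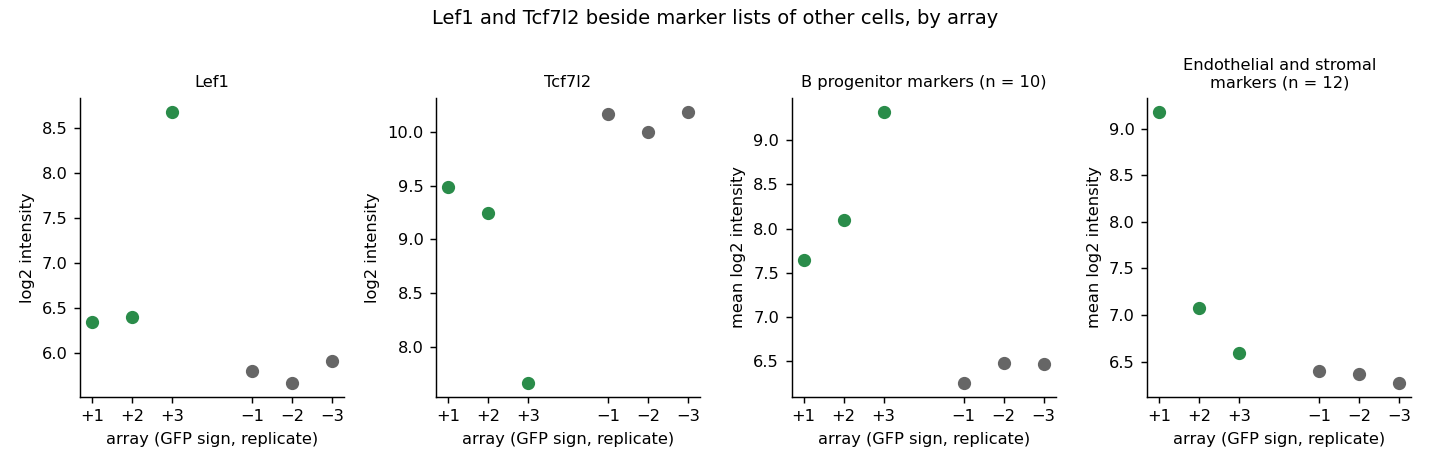
Log2 intensity of Lef1 (1454734_at) and Tcf7l2 (1429428_at), and mean log2 intensity of 10 B progenitor and 12 endothelial and stromal markers, in each array. GFP-positive arrays (green, +1 to +3) stand left of GFP-negative arrays (grey, −1 to −3). Array +3 has the highest Lef1, the lowest Tcf7l2 and the highest B progenitor mean (9.33), while the endothelial and stromal mean is highest in array +1 (9.18).

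Tcf7l1, on chromosome 6, gave answers that depended on the probe set. The probe set standing for the gene, 1436207_at, read 7.79, 6.00 and 6.36 in GFP-positive replicates, against 6.37, 5.92 and 7.26 in GFP-negative replicates. The groups overlapped widely and the log2 fold change was 0.20 ± 0.57 (SE; adjusted p = 0.989 by limma). The other probe set, 1450117_at, read 7.67, 6.57 and 7.15 in GFP-positive replicates, against 5.53, 6.13 and 6.27. Here all GFP-positive arrays lay above all GFP-negative ones, with a log2 fold change of 1.15 ± 0.35 (SE, limma adjusted p = 0.619 over all probe sets). GFP-positive replicate 1 was the highest array in both probe sets, and without it the fold changes were -0.34 and 0.88.

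Beta-catenin showed the smallest difference of the 6 genes in the probe sets that stand for them, though not by the mean of all its probe sets (-0.26). Ctnnb1, on chromosome 9, read 12.66, 12.63 and 12.58 in GFP-positive replicates for 1420811_a_at, against 12.67, 12.71 and 12.64 in GFP-negative replicates. The 6 arrays lay within a narrow band, and the groups overlapped. The log2 fold change was -0.05 ± 0.13 (SE; adjusted p = 0.987 by limma), and the 95% interval ran from -0.37 to 0.27. The dimmer probe sets 1450008_a_at and 1430533_a_at scattered more, with fold changes of -0.38 ± 0.38 and -0.33 ± 0.57 (SE) and overlapping groups. The arrays measured the transcript, not the protein, whose stability is what a Wnt signal controls.

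Axin2, on chromosome 11, was low and flat. Probe set 1421341_at read 5.78, 5.53 and 5.59 in GFP-positive replicates, against 5.58, 5.51 and 5.50 in GFP-negative replicates. The groups overlapped, with a log2 fold change of 0.10 ± 0.14 (SE, limma adjusted p = 0.974) and a 95% interval from -0.25 to 0.45. The second probe set, 1436845_at, read 5.27, 5.39 and 5.60 in GFP-positive replicates, against 5.21, 5.88 and 5.49, and had the opposite sign, -0.11 ± 0.23 (SE). The deposited values hold no detection call, so it cannot be told from them whether Axin2 was above background in either group.

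Apc, the large scaffold whose loss frees beta-catenin in colon tumours, had 4 probe sets that did not share a direction: 2 were higher and 2 lower. The probe set standing for the gene, 1420956_at, read 8.91, 9.32 and 8.49 in GFP-positive replicates, against 9.15, 9.04 and 7.12 in GFP-negative replicates. GFP-negative replicate 3 was far below the rest, the groups overlapped, and the log2 fold change of 0.47 ± 0.59 (SE, limma adjusted p = 0.971) became -0.19 without that array. Probe set 1450056_at was the steadiest, at 7.40, 7.42 and 7.59 in GFP-positive replicates, against 8.47, 8.15 and 8.08 in GFP-negative replicates. All GFP-positive arrays lay below, with a log2 fold change of -0.77 ± 0.18 (SE, limma unadjusted p = 0.00494, adjusted p = 0.502 over all probe sets). The other two, 1420957_at and 1435543_at, were at -0.02 ± 0.62 and 0.03 ± 0.95 (SE), with wide spread in both groups.

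A group held 1 female and 2 male arrays, too few for a test by sex to say much, with the lone female array assumed to vary like the males. The interaction of GFP and sex had a limma adjusted p between 0.792 (Tcf7l1) and 0.980 (Ctnnb1). Tcf7l1 differed by 1.42 between the female arrays and by -0.41 between the male means, and Lef1 by 0.54 and 1.75.

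Genes elsewhere in the pathway were read from lists, which overlap in places (Lgr5, Znrf3, Rnf43, Dkk1, Notum and Cdh5 stand in more than 1). In every list 0 genes passed over all genes. Over all 18194 genes the median log2 fold change was 0.01, and 51.3% of genes had a positive one. At an unadjusted p under 0.05, 3.33% of all genes were higher and 3.38% lower.

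Outside the cell, Wnt ligands with their secretion and R-spondin genes had a median of 0.03 over 25 genes, 16 higher and 9 lower, and 0 reached an unadjusted p under 0.05. Porcn, the enzyme that attaches the lipid Wnt proteins need, was at 0.47 ± 0.25 and Wnt5b at 1.02 ± 0.62 (log2 fold change ± SE, limma adjusted p = 0.863 and 0.902). Wnt5b read 8.04 in GFP-positive replicate 3 and 5.87 in both other GFP-positive replicates, against 5.88, 5.35 and 5.48 in GFP-negative replicates. Secreted inhibitors had a median of 0.07 over 13 genes, 11 higher and 2 lower, again with 0 at an unadjusted p under 0.05. Dkk3 was at 0.43 ± 0.23 and Dkk1, which blocks the Lrp coreceptors, at 0.15 ± 0.15 (SE, limma adjusted p = 0.857 and 0.962). Dkk1, Dkk2, Sfrp2, Frzb and Wif1, all counted as higher, read within or below the background range given above (3.42 to 4.69). The count of higher genes therefore says little about direction.

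Among 20 receptors and their regulators, 10 were higher and 10 lower (median -0.003), and 2 were higher at an unadjusted p under 0.05. Lgr4, an R-spondin receptor that strengthens Wnt signals, read 6.40, 5.80 and 7.35 in GFP-positive replicates, against 5.00, 5.30 and 5.00 in GFP-negative replicates. The groups did not overlap, and the log2 fold change was 1.42 ± 0.40 (SE; adjusted p = 0.545 by limma), with 0.25 for its other probe set. Ryk, a Wnt receptor of the tyrosine kinase family, was at 0.77 ± 0.31 (SE, limma adjusted p = 0.743), with 3 of 3 probe sets in that direction. The widest fold change in this list, 2.08 for the receptor Fzd4, which was chosen after its values were seen, went with a reading of 10.26 in GFP-positive replicate 1. The other GFP-positive arrays read 4.70 and 5.85, against 5.90, 4.36 and 4.31, and endothelial and stromal markers were highest in the same replicate 1.

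In the cytoplasm, 13 of 17 genes of the relay and the destruction complex were lower and 4 higher. Their median was -0.17. With 1 array left out it ran from -0.38 (without GFP-negative replicate 3) to -0.08 (without GFP-negative replicate 1). Only 1 gene, lower, had an unadjusted p under 0.05. That gene was Csnk1e, a kinase that acts on Dishevelled. It read 7.72, 7.34 and 7.12 in GFP-positive replicates, against 8.87, 9.22 and 7.83 in GFP-negative replicates, and 3 of 3 probe sets were lower. The difference was -1.25 ± 0.39 (log2, SE; limma adjusted p = 0.608). Btrc, the ubiquitin ligase subunit that recognises marked beta-catenin, was at -1.02 ± 0.45 (SE, limma adjusted p = 0.788), with 5 of 5 probe sets lower.

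In the nucleus, 16 of 20 cofactors and corepressors were lower and 4 higher, and 3, all lower, had an unadjusted p under 0.05. The list median was -0.16. With 1 array left out it ran from -0.34 (without GFP-negative replicate 2) to -0.11 (without GFP-negative replicate 1), and was -0.25 without GFP-positive replicate 3. Crebbp, a histone acetyltransferase recruited by beta-catenin, read 10.88, 10.56 and 10.57 in GFP-positive replicates, against 11.30, 11.35 and 11.11 in GFP-negative replicates. The groups did not overlap, 4 of 4 probe sets were lower, and the log2 fold change was -0.58 ± 0.17 (SE; adjusted p = 0.545 by limma). Tle4, a Groucho corepressor of TCF/LEF factors, was at -0.85 ± 0.32 (SE, limma adjusted p = 0.719), but 1 of its 3 probe sets was at 0.64. The related Tle3 (outside the naming rule and picked once its values were known) lay at -0.52 ± 0.21 (SE, limma adjusted p = 0.743) with groups that did not overlap. The widest fold change of the list went the other way and was also picked by its value: Ctnnbip1, which blocks the binding of beta-catenin to TCF/LEF factors. It read 10.55, 8.52 and 8.38 in GFP-positive replicates, against 7.31, 8.06 and 7.76 in GFP-negative replicates, a difference of 1.44 ± 0.62 (log2, SE; limma adjusted p = 0.765). The groups did not overlap, GFP-positive replicate 1 stood apart, and the gene's other probe set was at 0.61.

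Of known target genes of the pathway, 12 of 21 were higher and 9 lower (median 0.05), and 1, lower, had an unadjusted p under 0.05. Ccnd1, the G1 cyclin often given as a beta-catenin target, read 8.44, 8.40 and 9.33 in GFP-positive replicates, against 9.80, 9.27 and 9.81 in GFP-negative replicates. The groups overlapped, and the log2 fold change was -0.90 ± 0.31 (SE; adjusted p = 0.667 by limma), with 3 of 3 probe sets lower. Ppard, a nuclear receptor, was at 0.96 ± 0.40 (SE, limma adjusted p = 0.751). The widest fold change of this list, picked by its value, was that of Bambi, at 2.19 ± 0.91 (SE, limma adjusted p = 0.751). It read 8.77, 8.75 and 7.79 in GFP-positive replicates, against 8.32, 5.55 and 4.88 in GFP-negative replicates, and the groups overlapped. Cadherins and their partner catenins, which hold the pool of beta-catenin at cell junctions, had a median of 0.26 over 11 genes, 7 higher and 4 lower, with 0 at an unadjusted p under 0.05. Cdh1 read 4.09, 6.13 and 3.92 in GFP-positive replicates, against 3.81, 3.61 and 3.67, so GFP-positive replicate 2 stood apart. Cdh5, the endothelial cadherin, read 9.83 in GFP-positive replicate 1 and 4.91 and 4.65 in the other two, against 4.50, 5.01 and 4.29. Replicate 1 is also the array in which endothelial markers were highest, but Cdh5 is itself 1 of those markers.

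**Figure D4:**
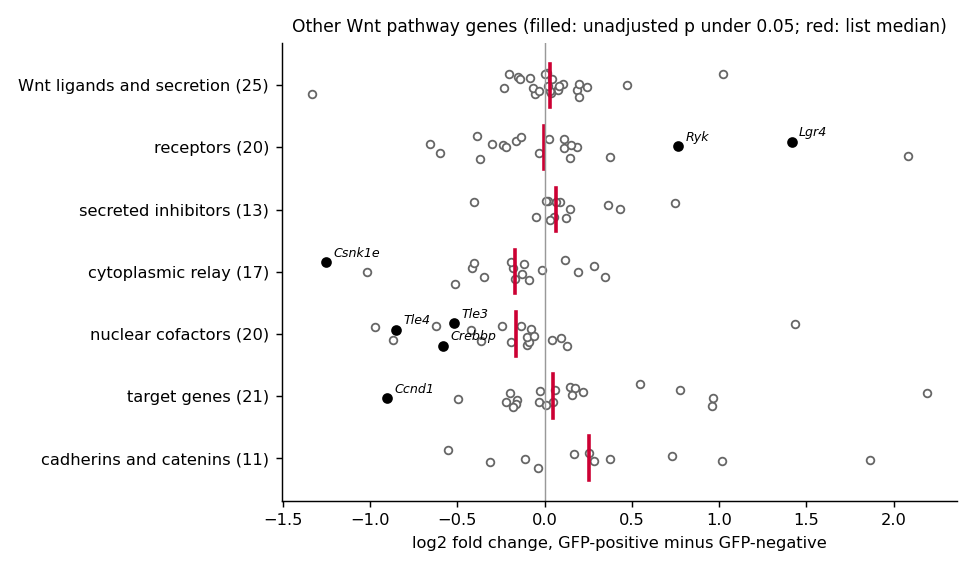
Log2 fold change (GFP-positive minus GFP-negative) of each measured gene in 7 Wnt pathway lists, with the number of genes in brackets. Filled points have an unadjusted p under 0.05 and red bars are list medians. The medians lie between -0.17 (cytoplasmic relay) and 0.26 (cadherins and catenins), and 0 genes passed over all genes.

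The genes whose pattern over the 6 arrays was most like each member were taken by Pearson correlation among brighter genes with a range of at least 1 on the log2 scale. About 5423 candidates against 6 arrays give high values readily, and the 6 points share their groups, so these are descriptions only. For Lef1 the closest were Vpreb3 (r = 0.984) and Reep2 (r = 0.976), for Tcf7l2 Tbl2 (r = 0.987) and Taf4b (r = 0.982), and for Tcf7l1 Zfp28 (r = 0.992) and Fbxo36 (r = 0.968). For Ctnnb1 they were Gem (r = 0.999) and Akap13 (r = 0.998), for Axin2 Zc3h3 (r = 0.992) and Poc1a (r = 0.986), and for Apc Cdk16 (r = 0.999) and Luc7l (r = 0.997). Both Ctnnb1 and Axin2 varied little, so their likeness rests on small differences.

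As a check of the sort, Hes1 read 7.36, 7.09 and 7.84 in GFP-positive replicates, against 6.78, 6.79 and 7.10 in GFP-negative replicates. The difference was 0.54 ± 0.24 (log2, SE; limma adjusted p = 0.780), and the highest GFP-negative array lay just above the lowest GFP-positive one. Any pair of arrays correlated at 0.925 to 0.951 over the whole probe set table. Precision is limited by the number of arrays. The labels do not state separate animals for the replicates, so the p-values reflect the spread among these 6 arrays alone, part of which may be technical.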

How the data were processed

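RNA from sorted LSK cells was amplified from 5 ng and biotin-labelled, per the labels' protocols. The authors deposited 1 linear intensity per probe set and array. RMA (background correction, quantile normalisation and probe summary) is the method that the submitters' processing notes name, without version or settings. Quantile normalisation removes shifts shared by most genes. Array medians lay between 74 and 78.5 and the lowest value was 4.12, so log2 was taken with no pseudocount.

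Of 45101 probe sets 34958 carried 1 symbol in the platform annotation, 932 carried several and 9211 were not listed. Only those with 1 symbol were tested. Groups were compared with limma 3.58.1 (R 4.3.3; lmFit, eBayes, no covariates), adjusted by Benjamini-Hochberg over 18194 genes or, for single probe sets, over 34958 probe sets. The script was tested on simulated data. Figures were drawn with matplotlib 3.10.9.

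The genes and lists were chosen with earlier results of these data known. Named by rule were the 6 measured genes, Hes1, the 2 genes of smallest p in each pathway list, defining markers and the 2 genes most like each member. Coordinates and promoters are those of RefSeq (GRCm38.p6). Some defining markers are not reported here.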

Additional observations from a re-analysis of the deposited data

How the results depend on the processing

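Lef1 stayed higher in 17 of 17 alternatives (0.58 to 1.84), Tcf7l2 lower in 19 of 19 (-1.76 to -0.75) and Ctnnb1 lower in 18 of 18 (-0.38 to -0.03), and no member passed over all genes in any alternative run. The counts include alternatives that cannot change a fold change here: the percentile filter, an intensity trend or robust prior for the variance, and sex or replicate number as a covariate. Those say nothing about direction. The remaining members changed sign, though none was called. Tcf7l1 (0.20) was at -0.41 in the male arrays alone and between -0.34 and 0.57 with 1 array left out, negative without GFP-positive replicate 1 or GFP-negative replicate 2. Axin2 (0.10) was at -0.0028 as the mean of its probe sets and at -0.11 for 1436845_at. Apc (0.47) was at -0.073 as the mean of its probe sets, at -0.021 for 1420957_at, at -0.77 for 1450056_at and between -0.19 and 0.83 with 1 array left out. Over all genes, 0 passed, but 1 (Ermap) passed above the 40th percentile of mean level and 0 to 5 with 1 array left out. The 5, without GFP-positive replicate 3, were Jchain, Igk, Igkv8-30, Pou2af1 and Ermap, named after their values were seen. Unadjusted, 1221 genes had p under 0.05.

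List medians that moved by more than the spread between GFP-positive arrays were those of receptors (-0.27 above the 40th percentile), secreted inhibitors (-0.024 in males, -0.061 to 0.11 with 1 array left out) and cadherins and catenins (-0.038 above the 40th percentile, -0.066 to 0.39 with 1 left out), the cytoplasmic relay (-0.38 to -0.084 with 1 left out, the first without GFP-negative replicate 3) and nuclear cofactors (-0.34 to -0.11, the first without GFP-negative replicate 2, and -0.25 without GFP-positive replicate 3). The lowest values of secreted inhibitors and of cadherins and catenins came without GFP-positive replicate 1. The cause was not tested. Counts of Lef1 probe sets higher and Tcf7l2 probe sets lower without GFP-positive replicate 1 or 3 were added after seeing the data and stayed at 2 and 4.

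The replicate numbers are shared by both groups, but the labels do not say what a number marks. Deviations from the group means correlated at 0.124, 0.05 and 0.092 for equal numbers, and every array correlated best with its own number, which is a hint from the data only. Replicate 1 was the only female in each group, so sex-linked genes enter the match of that number (0.124). Their share in it was not tested. With the replicate number as a block 0 genes passed and 1390 had an unadjusted p under 0.05. The limma adjusted p was then 0.683 for Lef1 and 0.623 for Tcf7l2. Each number occurs once per group, so the block leaves every fold change as it was and can change only its p-value.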
